A study of Arabidopsis thaliana with 6 samples.

Results

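The genes described here are 51 nuclear genes of Arabidopsis that encode the light-harvesting antenna, the nuclear subunits of photosystem I (PSI) and photosystem II (PSII), and a few partners of both, among 28775 genes counted. They were chosen by gene identifier and family, with earlier results of these data known: 6 *LHCA* genes, 14 *LHCB* genes, *PSBS*, 12 genes of PSI subunits, 9 of PSII subunits, 3 of electron carriers, 2 of the chloroplast ATP synthase and 4 of the Rubisco small subunit. All 51 passed the filter on low counts.

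The libraries came from the wild type, ecotype Col-0 (Col, 3 libraries), and from *brr2a*-2 in the Col background (labelled Cao, 3 libraries). The mutant was obtained in a screen for suppressors of *msi1-tap1* and carries the single missense change T895I in BRR2a, an RNA helicase of the spliceosome. It is a single allele, which the study considers likely to be reduced in function. Plants of both genotypes were grown in parallel in short days, received no treatment, and were harvested at 15 days, 1 h before dark. The labels name rosette leaves, the study's methods seedlings, and the labels number the libraries as biological replicates without naming separate cultures, so p-values measure the spread between these libraries.

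In green plants, pigment-binding LHCA and LHCB proteins collect light and pass its energy to PSI and PSII, whose reaction centre cores are encoded in the chloroplast while the antenna and many peripheral subunits are encoded in the nucleus. LHCB1 and LHCB2 form the trimers of the major antenna, and phosphorylation of LHCB2 is central to the movement of antenna between the photosystems. Nuclear photosynthesis genes respond to light, to the clock and to signals from the chloroplast, so that they often move as a group.

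The libraries held between 18692830 and 29830638 gene counts, and chloroplast genes took between 40.1% and 46.4% of them. The library Col 1 stood apart: it was the lowest of all 6 libraries for 40 of the 51 genes and lay below both other Col libraries for 46 of them. Levels are given as CPM, the counts of a gene relative to the TMM-scaled library total. Of 10 root marker genes, *PYK10* was at 1100 to 3470 CPM over the libraries, and the other 9 summed to 9.68 to 17.2 CPM in Col and to 15.4 to 24.3 CPM in *brr2a*-2, which overlapped. The endodermal markers *CASP1* and *CASP2* lay higher in *brr2a*-2 without overlap (3.67 to 7.17 against 7.43 to 10.7 CPM for *CASP1*), as did 10.8% of all genes tested. Of the 6 markers tested, 4 had a higher fitted level and 2 a lower one, *COBL9* and *PRP3* at log2 -0.97 and -0.57. *NRT2.1*, too weak to be tested, was at 0.158 to 1.02 CPM in Col and at 0 in all *brr2a*-2 libraries. *EXPA7*, *EXPA18* and *MRN1*, also untested, had lower means in *brr2a*-2. The part of root tissue in the results was not tested. In RNA from whole organs, fewer cells of a type and less RNA per cell cannot be told apart.

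The 51 genes together took about the same share of nuclear counts in both genotypes. The share was 5.43% in Col 1, 11.1% in Col 2 and 9.49% in Col 3, against 8.41%, 8.53% and 9.27% in the *brr2a*-2 libraries. The means were 8.66% ± 2.91 (SD, n = 3) in Col and 8.74% ± 0.463 in *brr2a*-2, and all 3 mutant values lay between the Col values. The sign of the difference of 0.0769 percentage points depended on single libraries, since it was -1.54 without Col 1 and 1.28 without Col 2.

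Gene by gene, 24 of the 51 had a higher and 27 a lower fitted level in *brr2a*-2, with log2 fold changes between -0.89 and 0.99 and a median of -0.02, beside a median of -0.04 over the 19121 genes tested. For 35 genes the log2 fold change was under 0.25 in size. No member was called at an adjusted p under 0.05 with a log2 fold change of at least 1 (edgeR quasi-likelihood test, Benjamini-Hochberg adjustment over all genes tested), and the adjusted p-values ran from 0.307 to 0.99. The background under this rule was 0%, because no gene of the table was called, although 1326 genes were higher and 1428 lower at an unadjusted p under 0.05. DESeq2 called 417 genes, 2.18% of those tested, and none of the 51, its smallest adjusted p for a member being 0.139. At an unadjusted p under 0.05, 2 members were higher and none lower, against a background of 6.93% higher and 7.47% lower.

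Col 1 carried much of the balance between higher and lower. Without it, 10 members had a higher and 41 a lower fitted level, and the median was -0.24, while without Col 2 the numbers were 41 higher and a median of 0.23. For 2 members, both higher in *brr2a*-2, no library of one genotype lay among those of the other, where the background was 10.8% higher and 10.2% lower. Without Col 1, 14 members lay lower without overlap (background 16.5%), and without Col 2, 14 lay higher (background 16.2%).

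**Figure D1:**
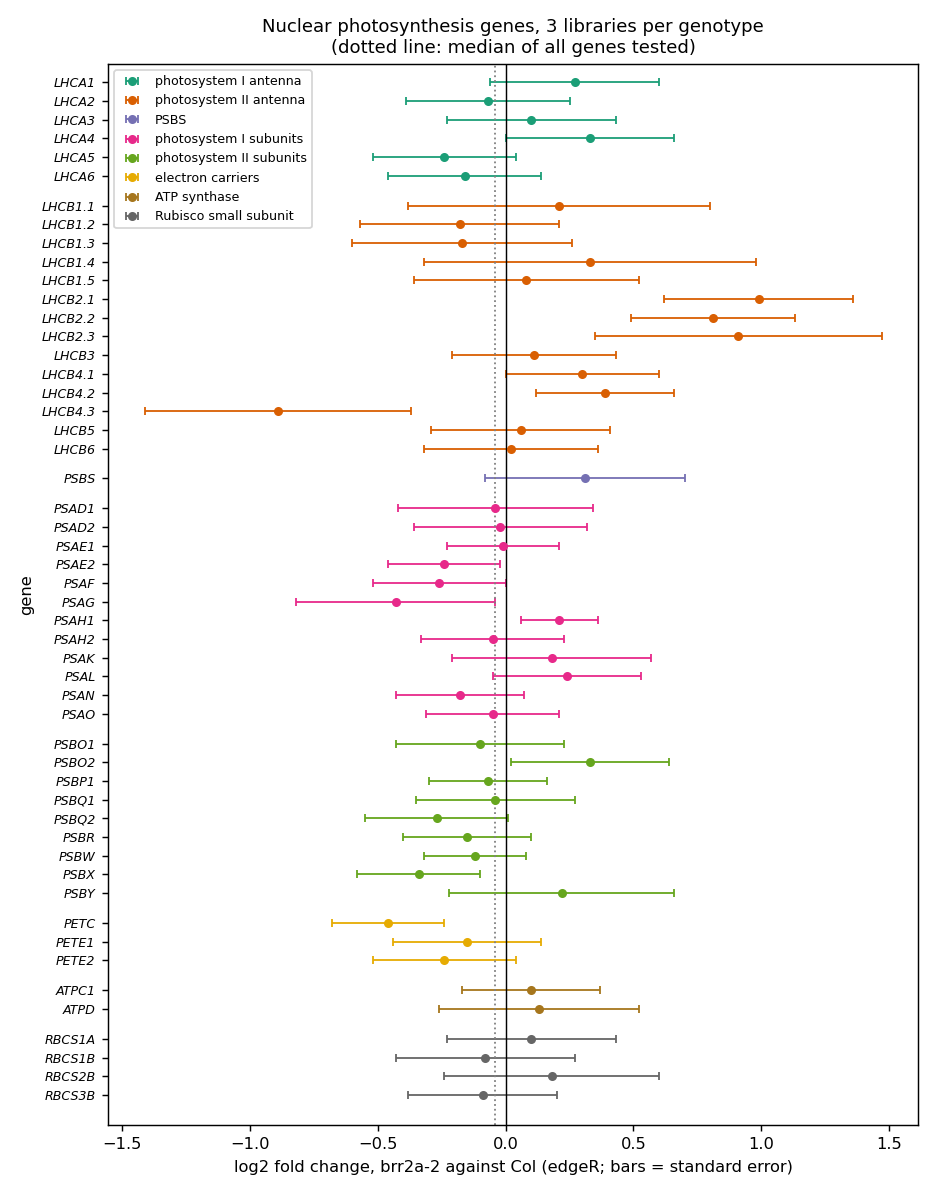
Log2 fold changes of the 51 genes in *brr2a*-2 against Col (points, horizontal axis) with their standard errors (bars, 3 libraries per genotype), grouped by role, and the median of all genes tested as a dotted line. Most points lie within 0.25 of 0, and the 3 *LHCB2* genes lie farthest to the right, at 0.81 to 0.99.

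The *LHCB2* genes stood at the upper end. *LHCB2.1* (AT2G05100, TAIR10.1 chr2:1822990-1824480, minus strand) encodes 1 of the near-identical LHCB2 proteins. It was measured at 196, 566 and 368 CPM in Col 1 to 3 and at 722, 718 and 803 CPM in the *brr2a*-2 libraries. All mutant libraries lay above all Col libraries. The log2 fold change was 0.99 ± 0.37 (standard error), with an adjusted p of 0.307 (edgeR, Benjamini-Hochberg). *LHCB2.2* (AT2G05070, chr2:1799234-1800472, minus strand) was at 268, 627 and 487 CPM in Col and at 795, 749 and 876 CPM in *brr2a*-2. These values did not overlap either, and the log2 fold change was 0.81 ± 0.32 with an adjusted p of 0.325 in the edgeR fit. For each of these 2 genes the exact two-sided permutation test over libraries gave p = 0.1, the smallest value that 3 against 3 libraries allow.

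*LHCB2.3* (AT3G27690, chr3:10255906-10257489, plus strand) was at 73.2, 351 and 170 CPM in Col and at 548, 269 and 299 CPM in *brr2a*-2. The Col 2 value lay above 2 of the mutant values, so the groups overlapped. The edgeR log2 fold change was 0.91 ± 0.56 with an adjusted p of 0.49. It moved to 0.51 without Col 1, 0.52 without mutant library 1 and 1.62 without Col 2. Of 90-base windows in the transcripts, 87.9% of *LHCB2.1*, 84.9% of *LHCB2.2* and every one of *LHCB2.3* occurred once in the genome, so the split of counts between the first pair is less certain than their sum.

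The summed level of the *LHCB2* genes was 537, 1540 and 1020 CPM in Col and 2070, 1740 and 1980 CPM in *brr2a*-2. The lowest mutant library was above the highest Col library, and the means were 1040 ± 504 and 1930 ± 170 CPM (SD, n = 3). The 5 *LHCB1* genes, which encode the partner protein in the same trimers, summed to 6270, 21900 and 15500 CPM in Col and to 12400, 14900 and 15000 CPM in *brr2a*-2. Here the mutant values lay inside the Col range. As a ratio within each library, a quantity chosen after the values were seen and therefore given without a test, there were 8.57, 7.04 and 6.62 *LHCB2* counts per 100 *LHCB1* counts in Col. In *brr2a*-2 there were 16.6, 11.6 and 13.2, so that the groups did not overlap, and Col 1, the lowest in level, had the highest of the Col ratios.

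**Figure D2:**
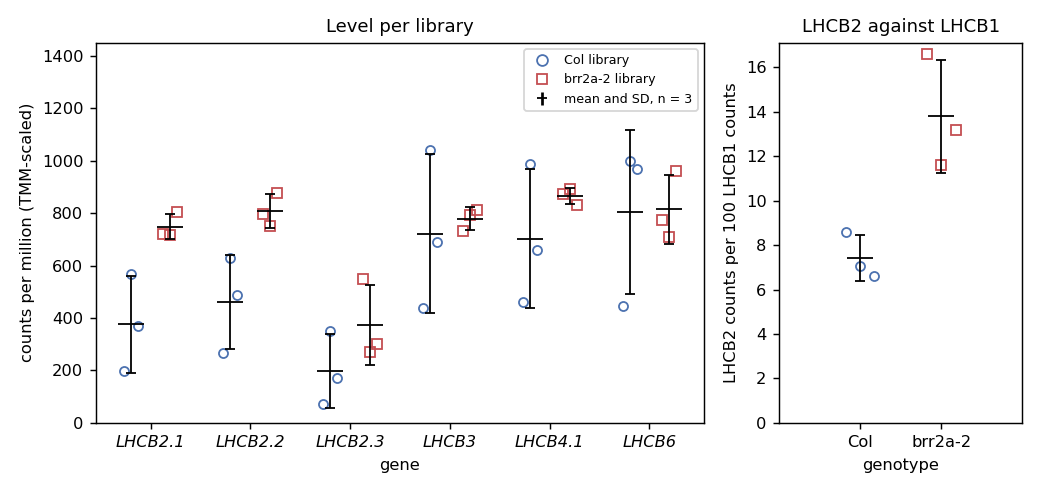
Levels of the *LHCB2* genes and of 3 other *LHCB* genes in each library (CPM, left) and *LHCB2* counts per 100 *LHCB1* counts in each library (right), with circles for Col, squares for *brr2a*-2, and black marks for the mean and SD of 3 libraries. The mutant squares of *LHCB2.1* and *LHCB2.2* lie above every Col circle, whereas those of *LHCB3*, *LHCB4.1* and *LHCB6* lie within or beside the Col range.

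The 3 *LHCB2* promoters are shown because these are the members with the highest fold changes. Each sequence holds the 250 bases before the annotated start of the gene (RefSeq, TAIR10.1), 5′ to 3′ on the strand of the gene, at chr2:1824481-1824730 (minus), chr2:1800473-1800722 (minus) and chr3:10255656-10255905 (plus). Capitals mark matches to the searched motifs: the CCAATC box (CCAATC), the I-box core (GATAAG) and the G-box (CACGTG).
LHCB2.1: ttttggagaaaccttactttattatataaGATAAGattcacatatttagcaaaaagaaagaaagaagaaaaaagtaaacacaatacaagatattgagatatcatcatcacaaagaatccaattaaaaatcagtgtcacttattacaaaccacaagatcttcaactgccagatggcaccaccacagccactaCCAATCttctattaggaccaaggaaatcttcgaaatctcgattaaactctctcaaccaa
LHCB2.2: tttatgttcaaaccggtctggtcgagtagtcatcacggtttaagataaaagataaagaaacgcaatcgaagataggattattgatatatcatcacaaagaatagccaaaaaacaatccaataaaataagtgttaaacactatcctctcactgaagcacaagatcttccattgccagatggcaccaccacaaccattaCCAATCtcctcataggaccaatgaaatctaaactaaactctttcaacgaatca
LHCB2.3: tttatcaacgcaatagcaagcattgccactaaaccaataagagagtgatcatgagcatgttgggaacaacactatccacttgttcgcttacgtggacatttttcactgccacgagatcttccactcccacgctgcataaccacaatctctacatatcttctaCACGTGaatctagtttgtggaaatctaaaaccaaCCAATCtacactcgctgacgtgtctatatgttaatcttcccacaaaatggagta

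All 3 *LHCB2* promoters held a CCAATC box, and *LHCB2.1* also an I-box core and *LHCB2.3* a G-box. Both strands were searched, no motif contains another, and a match is a description and not a binding site. Over the 51 promoters, 27.5% held a CCAATC box, 23.5% an I-box core and 19.6% a G-box, against 10.5%, 12.7% and 5.48% of 36240 promoters of the same length. These 36240 were not limited to expressed or protein-coding genes, so they are a set unlike the members. The CCA1-binding sites AAAAATCT and AACAATCT were in 9.8% and 2.0% of the members' promoters, beside 6.18% and 1.89% of all, and the evening element AAAATATCT in 3.9% beside 2.13%. Of the other *LHCB* genes, *LHCB1.3*, *LHCB1.5*, *LHCB4.1* and *LHCB4.2* held the CCAATC box as well, with log2 fold changes of -0.17, 0.08, 0.30 and 0.39.

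Of the other 11 *LHCB* genes, 8 were positive and 3 negative on the log2 scale, and their median was 0.08. Without Col 1, 2 of these 11 were positive, and the median was -0.23. *LHCB1.3*, the member with the highest level per length in Col (6070 CPM per kilobase of exon), was at 3410, 10900 and 8080 CPM in Col and at 5590, 7470 and 6840 CPM in *brr2a*-2. The Col range enclosed the mutant range, and the log2 fold change was -0.17 ± 0.43. *LHCB3*, whose product replaces other subunits in some trimers, was at 0.11 on the log2 scale, and the minor antenna genes *LHCB4.1*, *LHCB4.2*, *LHCB5* and *LHCB6* at 0.30, 0.39, 0.06 and 0.02. *LHCB4.3* was the member with the lowest level, at 2.60, 1.35 and 0.896 CPM in Col and 1.29, 0.820 and 0.500 CPM in *brr2a*-2. The groups overlapped, and its log2 fold change of -0.89 ± 0.52 had an adjusted p of 0.471 in edgeR.

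*PSBS* encodes the PSII protein that senses lumen acidity and sets off the dissipation of excess light energy as heat. It was at 255, 582 and 257 CPM in Col and at 529, 517 and 307 CPM in *brr2a*-2. The groups overlapped, since Col 2 held the highest value of all libraries, and the log2 fold change was 0.31 ± 0.39.

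The 6 *LHCA* genes, whose products form the PSI antenna, centred on a log2 fold change of 0.01 (median). *LHCA1* had the highest level per length among them, at 1550, 3350 and 3020 CPM in Col and 3340, 2860 and 3350 CPM in *brr2a*-2. *LHCA4*, the partner of LHCA1 in a dimer, was at 1240, 2600 and 2400 CPM in Col and 2830, 2270 and 2730 CPM in *brr2a*-2. Apart from Col 1, the libraries of both genes were close to each other, and the log2 fold changes were 0.27 ± 0.33 and 0.33 ± 0.33. *LHCA5* and *LHCA6*, whose products link PSI to the NDH complex, were the weakly expressed members, with 23.2 and 36.2 CPM per kilobase in Col and log2 fold changes of -0.24 and -0.16.

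For the subunits of PSI, 3 genes were positive and 9 negative, with a median log2 fold change of -0.05. *PSAD1*, which encodes a stromal subunit at the ferredoxin docking site, was at 913, 1740 and 2510 CPM in Col and at 2040, 1560 and 1410 CPM in *brr2a*-2. *PSAG*, which encodes a membrane subunit near the antenna, was at 580, 1100 and 1770 CPM in Col and at 906, 807 and 839 CPM in *brr2a*-2. For both, the mutant values lay within the Col range, and the log2 fold changes were -0.04 ± 0.38 and -0.43 ± 0.39. Members present as gene pairs had similar values, with -0.04 and -0.02 for *PSAD1* and *PSAD2* and -0.01 and -0.24 for *PSAE1* and *PSAE2*, while *PSAH1* and *PSAH2* were at 0.21 and -0.05.

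For PSII subunits the median was -0.10, with 2 positive and 7 negative genes. *PSBO1*, which encodes the manganese-stabilizing protein of the oxygen-evolving complex, was at 1010, 2280 and 1980 CPM in Col and at 1690, 1560 and 1670 CPM in *brr2a*-2. *PSBX*, which encodes a small membrane subunit, was at 171, 149 and 177 CPM in Col and at 129, 94.2 and 171 CPM in *brr2a*-2. The groups overlapped for both genes, and the log2 fold changes were -0.10 ± 0.33 and -0.34 ± 0.24. *PSBO2*, which encodes another isoform of the manganese-stabilizing protein, was at 0.33 ± 0.31 on the log2 scale.

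All 3 genes of the electron carriers had a lower fitted level in *brr2a*-2. *PETC*, the gene of the Rieske iron-sulphur protein of the cytochrome b6f complex, was at 362, 473 and 527 CPM in Col and at 381, 323 and 286 CPM in *brr2a*-2. Mutant library 1 lay above Col 1, so the groups overlapped, and the log2 fold change was -0.46 ± 0.22 with an adjusted p of 0.395 in edgeR. *PETE2*, which encodes the major plastocyanin, was at 562, 1090 and 833 CPM in Col and at 625, 786 and 694 CPM in *brr2a*-2, with a log2 fold change of -0.24 ± 0.28. The groups overlapped here as well.

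Of the ATP synthase genes, *ATPC1* (subunit gamma) was at 374, 722 and 591 CPM in Col and at 596, 643 and 563 CPM in *brr2a*-2. *ATPD* (subunit delta) was at 215, 619 and 391 CPM in Col and at 384, 571 and 391 CPM in *brr2a*-2. The log2 fold changes, 0.10 ± 0.27 and 0.13 ± 0.39, were smaller than their errors. The 4 genes of the Rubisco small subunit summed to 2150, 4840 and 2690 CPM in Col and to 3560, 3410 and 3180 CPM in *brr2a*-2, the mutant values again lying inside the Col range. *RBCS1A*, the most abundant of them per length, was at 1540, 3430 and 1950 CPM in Col and at 2550, 2510 and 2320 CPM in *brr2a*-2, with a log2 fold change of 0.10 ± 0.33. *RBCS2B* was at 137, 422 and 204 CPM in Col and at 359, 287 and 220 CPM in *brr2a*-2, with a log2 fold change of 0.18 ± 0.42. Among the Rubisco genes, 86.4% of the windows of *RBCS3B* and 92.0% of those of *RBCS1B* occurred once in the genome, so their split is uncertain as well.

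Related pathways were read from lists drawn up with earlier results of these data known, and their counts are descriptions. The regulators were 13 genes for transcription factors, sigma factors of the chloroplast RNA polymerase and the retrograde signalling protein GUN1. All 13 had a higher fitted level in *brr2a*-2, with a median log2 fold change of 0.36, and all 13 were also positive without Col 1, with a median of 0.24. Over all genes tested, 8808 of 19121 had a higher fitted level. Without mutant library 2, *GLK1* turned to -0.16. For 2 of the 13, both higher in *brr2a*-2, the libraries did not overlap (background 10.8%). At an unadjusted p under 0.05, 5 of them were higher (background 6.93%), and DESeq2 called 2 (background 2.18%), whereas edgeR called none. *GLK1* and *GLK2* encode the Golden2-like activators of antenna and chlorophyll genes. *GLK1* was at 51.6, 96.4 and 85.7 CPM in Col and at 75.5, 140 and 64.1 CPM in *brr2a*-2, and *GLK2* at 25.9, 61.8 and 96.6 CPM in Col and at 114, 115 and 156 CPM in *brr2a*-2. The groups overlapped for *GLK1* (log2 0.26 ± 0.36) and not for *GLK2* (log2 1.06 ± 0.44, adjusted p = 0.333 in edgeR).

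*SIG5*, which encodes a light- and stress-induced sigma factor of the chloroplast RNA polymerase, was at 15.7, 24.4 and 16.3 CPM in Col and at 126, 80.8 and 33.2 CPM in *brr2a*-2. The libraries did not overlap, with mutant library 3 nearest to Col, and the log2 fold change was 2.09 ± 0.47. Its adjusted p was 0.184 in edgeR and 0.000926 in DESeq2. *HYH*, named after its values were seen as the other gene called by DESeq2, encodes the close homologue of the light signalling factor HY5. It was at 4.38, 8.23 and 4.32 CPM in Col and at 26.1, 20.3 and 7.56 CPM in *brr2a*-2. Mutant library 3 lay below Col 2, and the adjusted p was 0.232 in edgeR and 0.0268 in DESeq2.

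**Figure D3:**
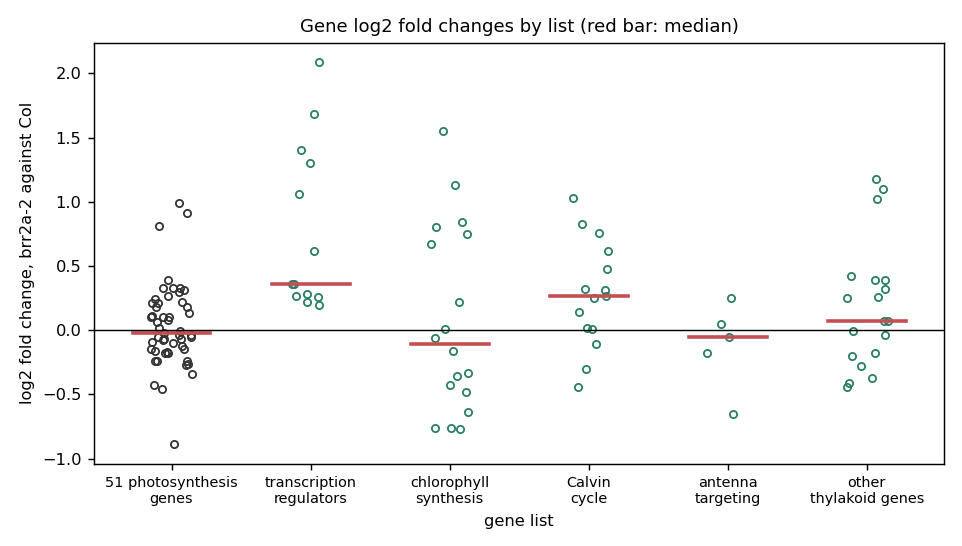
Gene log2 fold changes in *brr2a*-2 against Col (vertical axis) for the 51 photosynthesis genes and 5 related lists, with 1 circle per gene and the median as a red bar. The 13 regulators all lie above 0 with a median of 0.36, the 51 photosynthesis genes centre on -0.02.

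Chlorophyll synthesis genes were spread in both directions. Of 18 genes, 8 were positive and 10 negative, with a median of -0.11, and at an unadjusted p under 0.05 1 was higher and 3 were lower (background 6.93% and 7.47%). *CAO*, the gene of chlorophyllide a oxygenase that makes chlorophyll b (AT1G44446, unrelated to the mutant label), was at 56.0, 144 and 92.5 CPM in Col and at 242, 204 and 192 CPM in *brr2a*-2. No libraries overlapped, and the log2 fold change was 1.13 ± 0.34 with an adjusted p of 0.245 in edgeR and 0.053 in DESeq2. The light-dependent protochlorophyllide reductase *PORB* was at 393, 668 and 585 CPM in Col and at 198, 244 and 527 CPM in *brr2a*-2, where mutant library 3 lay within the Col range (log2 -0.77 ± 0.41). *PORA*, the reductase gene of etiolated seedlings, was at 0.573, 0.837 and 0.580 CPM in Col and at 0.876, 0.627 and 4.39 CPM in *brr2a*-2, and its log2 fold change of 1.55 ± 0.76 rested on mutant library 3.

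Of 15 Calvin cycle genes, 12 were positive with a median of 0.27, which was -0.01 without Col 1. The chloroplast aldolase *FBA1* was at 113, 382 and 138 CPM in Col and at 394, 556 and 341 CPM in *brr2a*-2, and the lowest mutant value lay below Col 2 (log2 1.03 ± 0.48). *CP12-1*, a regulator of the cycle, was at 108, 92.4 and 244 CPM in Col and at 81.4, 57.9 and 188 CPM in *brr2a*-2 (log2 -0.44 ± 0.53). Of 5 genes that target antenna proteins to the thylakoid, *CPFTSY*, the receptor of the chloroplast signal recognition particle, was at 22.5, 30.7 and 26.3 CPM in Col and at 17.3, 16.9 and 16.4 CPM in *brr2a*-2. Its libraries did not overlap, and the log2 fold change was -0.65 ± 0.17 with an adjusted p of 0.218 in edgeR and 0.0603 in DESeq2. *CPSRP43*, a subunit of that particle, was at 35.9, 56.0 and 107 CPM in Col and at 70.4, 57.8 and 108 CPM in *brr2a*-2, which overlapped (log2 0.25 ± 0.42).

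Among 19 other thylakoid genes, 11 were positive and 8 negative, and the median was 0.07. *ELIP2*, an early light-induced protein gene, was at 1.51, 0.698 and 0.0527 CPM in Col and at 2.40, 2.07 and 0.834 CPM in *brr2a*-2 (log2 1.18 ± 0.84). *FNR2*, a ferredoxin-NADP reductase gene, was at 615, 1220 and 953 CPM in Col and at 781, 668 and 605 CPM in *brr2a*-2 (log2 -0.44 ± 0.29). Both overlapped between genotypes. *ZEP*, the zeaxanthin epoxidase gene of the xanthophyll cycle, was named after its values were seen as the 1 gene of this list that DESeq2 called. It was at 113, 137 and 114 CPM in Col and at 299, 232 and 208 CPM in *brr2a*-2, without overlap, with a log2 fold change of 1.02 ± 0.21 and adjusted p-values of 0.176 in edgeR and 0.000692 in DESeq2.

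Because BRR2a acts in splicing, the introns of the same genes were compared next. The intron table holds 77 introns in 36 of the 51 genes, while 15 members have none in it. The 14 introns of 6 genes on chromosome 3 were left out, since across genes the log2 counts of introns and genes correlated with a Pearson r of only 0.306 there, against 0.875 to 0.895 on the other chromosomes, so that intron names there do not follow their genes. This left 63 introns of 30 genes, of which 55 could be placed in TAIR10.1, all of them with GT and AG at their ends. The introns of *PSBS*, *PSBQ2* and *RBCS1B*, where the number of introns differs from TAIR10.1, keep their number in the file.

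Relative to the counts of their genes, intron counts of the photosynthesis genes were higher in every *brr2a*-2 library than in every Col library. The 63 introns had 6.78, 8.80 and 11.8 counts per 1000 counts of their genes in Col 1 to 3, and 27.4, 27.7 and 20.6 in the *brr2a*-2 libraries. The means were 9.14 ± 2.54 and 25.2 ± 4.04 (SD, n = 3), a ratio of 2.76, and the difference stayed between 14.9 and 18.4 when any library was left out. For the 94634 introns of all other genes outside chromosome 3, the corresponding means were 68.7 ± 8.09 and 93.0 ± 5.86, also without overlap, with a ratio of 1.35. The difference of the means was 16.1 counts per 1000 gene counts for the photosynthesis genes and 24.3, a larger value, for other genes. The photosynthesis genes had fewer intron counts per gene count than other genes in both genotypes, so their larger ratio goes with a lower Col mean. This ratio is not a share of unspliced transcripts, because intron length and the placement of reads also set it.

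**Figure D4:**
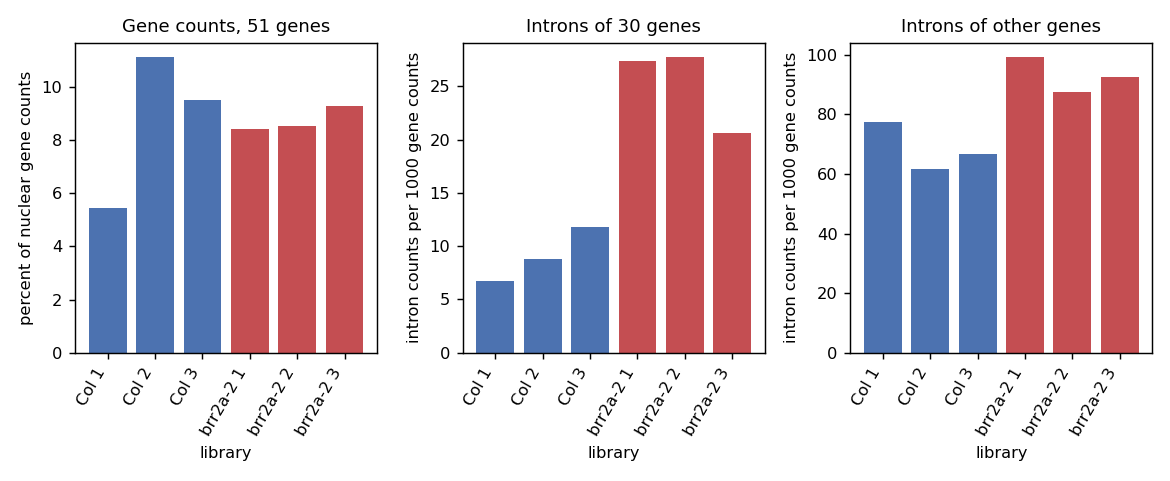
Share of nuclear gene counts held by the 51 genes (left, percent), intron counts per 1000 gene counts in 30 of them (middle) and in all other genes outside chromosome 3 (right), with 1 bar per library, Col in blue and *brr2a*-2 in red. The shares overlap between genotypes, the intron ratios of the photosynthesis genes lie at 6.78 to 11.8 in Col and at 20.6 to 27.7 in *brr2a*-2, and those of other genes lie at 61.8 to 77.6 and 87.4 to 99.1.

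The higher intron ratio was seen in each of the 7 roles with introns used, *PETC* being the only such gene of the carriers, while the ATP synthase genes had none. The ratio of the *brr2a*-2 mean to the Col mean was 3.22 for PSI subunits, 2.72 for *LHCB* genes and for PSII subunits, 2.65 for *PETC*, 2.58 for Rubisco, 1.97 for *PSBS* and 1.89 for *LHCA* genes, and the libraries overlapped in none of these roles. Single introns followed, as 62 of the 63 had a higher mean ratio in *brr2a*-2 and for 48, or 76.2%, the libraries did not overlap. Of other introns outside chromosome 3 with at least 10 counts over all libraries, 77% had a higher mean and 21.6% did not overlap in this direction. The sets were not matched for their counts, and weakly covered introns overlap more easily. Among introns that passed the filter on low counts, 83.9% of the photosynthesis introns did not overlap in this direction, beside 31.9% of all outside chromosome 3.

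In the intron test, the change of the gene was taken out, and libraries were scaled on the intron counts, so that values are relative to a median log2 fold change of -0.12 over the 17214 introns tested and of -0.14 over the 13811 outside chromosome 3. The latter are the background given here. Of the 63 introns, 56 in 28 genes passed the filter on low counts, 13 of them with under 10 counts in at least 1 Col library, so that their passing depended in part on the mutant. The other 7, namely 2 of *LHCA6*, 3 of *LHCA5*, 1 of *LHCB4.3* and 1 of *RBCS1B*, had at most 20 counts in any library. The log2 fold changes beyond the gene ran from -0.14 to 1.92 with a median of 0.81, and 54 were positive and 2 negative, where 41.2% of the background was positive. None was called by edgeR (adjusted p of 0.101 or more, background 0.0362% higher and 0.0145% lower), and DESeq2 called 1 (background 0.123%). At an unadjusted p under 0.05, 17 were higher and none lower, with a background of 3.87% higher and 6.47% lower. Of the 56 introns, 42 lie in genes above 300 CPM. Among 544 other introns in such genes, 72.2% were positive and 66 were higher at an unadjusted p under 0.05 in edgeR. With the library scaling of the gene table, the median over all introns moved to 0.54, that of the photosynthesis introns to 1.46, and 13 were called (background 3.23%). On simulated counts the intron test made more false calls than its threshold allows.

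**Figure D5:**
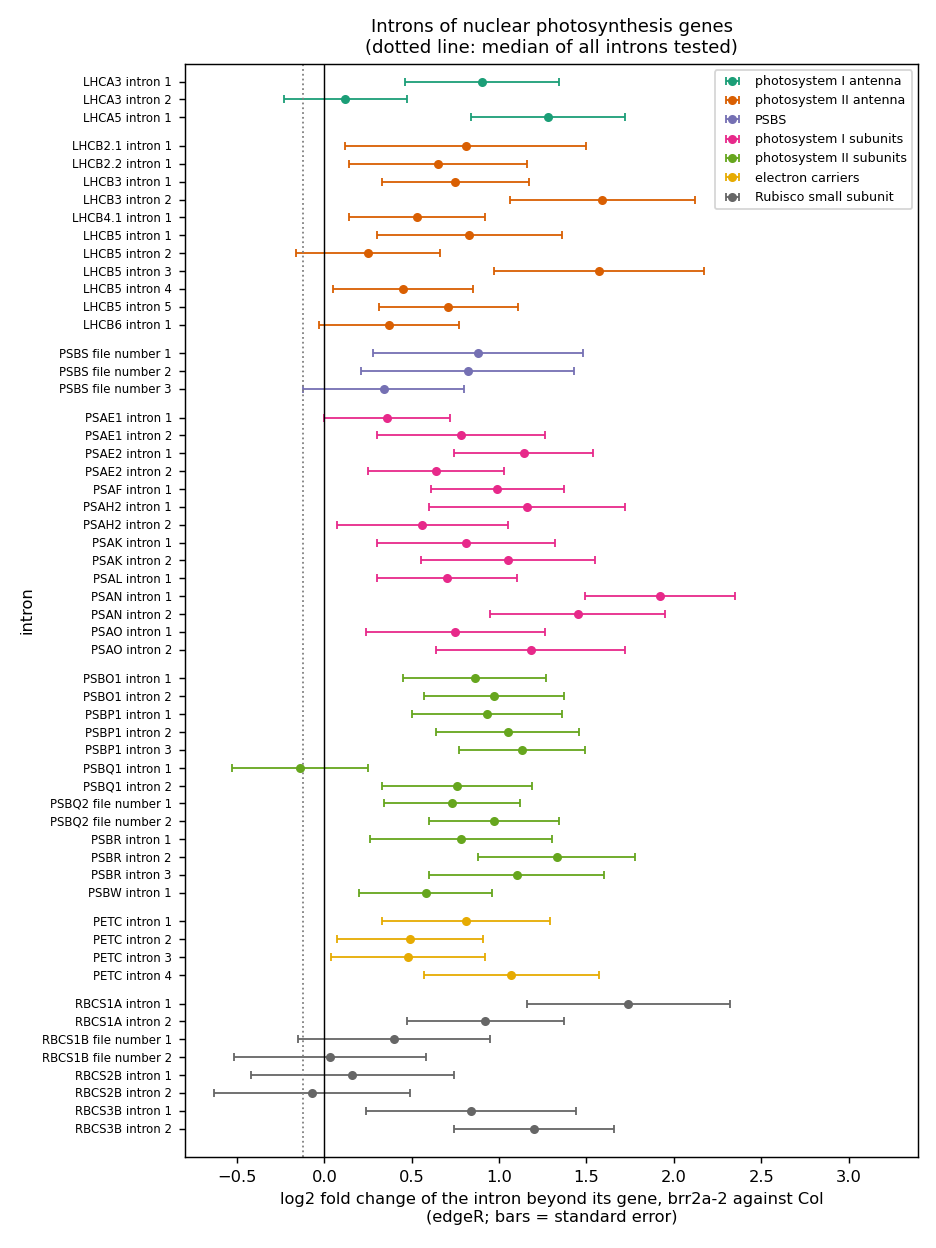
Log2 fold changes of 56 introns beyond the change of their gene in *brr2a*-2 against Col (points, horizontal axis) with standard errors (bars, 3 libraries per genotype), coloured by role, and the median of all introns tested, -0.12, as a dotted line. The points of 54 introns lie above 0, with *PSAN* intron 1 farthest right at 1.92 and *PSBQ1* intron 1 farthest left at -0.14.

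The introns with the largest and some with the smallest changes are printed here in full, because they lie at or near the ends of the range of values. They are given 5′ to 3′ on the strand of the gene (RefSeq, TAIR10.1), with the GT and AG at the ends in capitals. The first 5 are *PSAN* intron 1 (chr5:25629032-25629109, minus strand), *RBCS1A* intron 1 (chr1:25048973-25049078, minus), *LHCB3* intron 2 (chr5:22038810-22038873, plus), *LHCB5* intron 3 (chr4:6408698-6408795, plus) and *PSAN* intron 2 (chr5:25628814-25628905, minus). The last 3 are *LHCB5* intron 2 (chr4:6408558-6408646, plus), *LHCA3* intron 2 (chr1:22700447-22700533, plus) and *RBCS2B* intron 2 (chr5:15381443-15381582, minus). All lie between exons of the first isoform, and whether these exons are coding was not examined.
PSAN intron 1: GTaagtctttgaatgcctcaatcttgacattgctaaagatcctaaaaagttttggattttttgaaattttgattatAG
RBCS1A intron 1: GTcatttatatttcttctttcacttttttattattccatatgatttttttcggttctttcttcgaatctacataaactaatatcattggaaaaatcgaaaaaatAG
LHCB3 intron 2: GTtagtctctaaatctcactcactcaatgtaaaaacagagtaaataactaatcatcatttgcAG
LHCB5 intron 3: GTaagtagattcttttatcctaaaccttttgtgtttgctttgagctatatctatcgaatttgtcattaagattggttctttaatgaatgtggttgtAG
PSAN intron 2: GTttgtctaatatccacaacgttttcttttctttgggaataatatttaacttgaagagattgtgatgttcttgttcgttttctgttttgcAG
LHCB5 intron 2: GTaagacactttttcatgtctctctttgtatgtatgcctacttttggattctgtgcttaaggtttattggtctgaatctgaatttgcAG
LHCA3 intron 2: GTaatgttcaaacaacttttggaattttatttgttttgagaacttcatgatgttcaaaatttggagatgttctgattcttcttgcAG
RBCS2B intron 2: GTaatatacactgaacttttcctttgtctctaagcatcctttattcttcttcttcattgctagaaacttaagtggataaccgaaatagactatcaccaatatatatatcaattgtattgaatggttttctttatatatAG

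*PSAN* encodes a lumenal PSI subunit at the plastocyanin docking site, and its introns were both among the 5 with the largest values. Intron 1, of 78 bases, was covered by 31, 37 and 56 counts in Col against 240, 179 and 167 in *brr2a*-2. This was 1.92, 2.37 and 4.08 per 1000 gene counts against 18.2, 19 and 14.4, without overlap. The log2 fold change beyond the gene was 1.92 ± 0.43 with an adjusted p of 0.101 in edgeR and 0.00561 in DESeq2. The adjusted p in edgeR ranged down to 0.0145 with the gene scaling, and was 0.0462 without Col 1. Without mutant library 1 it was not under 0.1048, the smallest edgeR value of any intron in that fit. Intron 2, of 92 bases, was less covered (5, 9 and 15 counts in Col against 43, 29 and 27), and its log2 fold change was 1.45 ± 0.50. The log2 fold change of the gene itself was -0.18 ± 0.25.

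*RBCS1A* intron 1, of 106 bases, was covered by 9, 37 and 49 counts in Col against 251, 126 and 137 in *brr2a*-2, or 0.177, 0.502 and 1.33 against 4.54, 2.42 and 3.28 per 1000 gene counts. No values overlapped, and the log2 fold change was 1.74 ± 0.58 with an adjusted p of 0.253 in edgeR. *LHCB3* intron 2, at 64 bases the shortest of the introns placed, was covered by 57, 197 and 94 counts in Col against 507, 768 and 368 in *brr2a*-2, without overlap. Its log2 fold change was 1.59 ± 0.53, that of intron 1 in the same gene 0.75 ± 0.42.

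*LHCB5*, the gene of the minor antenna protein CP26, has 5 introns, the most of the genes used. Intron 3, of 98 bases, was covered by 11, 34 and 5 counts in Col against 75, 101 and 41 in *brr2a*-2, with a log2 fold change of 1.57 ± 0.60, which moved to 1.04 without Col 3 and 2.65 without Col 2. Intron 2, of 89 bases, was covered by 46, 69 and 74 counts in Col against 117, 109 and 104 in *brr2a*-2, with a log2 fold change of 0.25 ± 0.41. The remaining introns 1, 4 and 5 lay between them at 0.83, 0.45 and 0.71, and for all 5 the counts per 1000 gene counts did not overlap between genotypes. Differences between introns of a gene were not tested.

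At the lower end, *PSBQ1* intron 1, of 372 bases in a gene of the oxygen-evolving complex, had 29.2, 27.8 and 38.1 counts per 1000 gene counts in Col and 51.7, 42.4 and 40.9 in *brr2a*-2. These did not overlap, yet the log2 fold change beyond the gene was -0.14 ± 0.39 on the intron scaling and 0.52 on that of the gene table. *RBCS2B* intron 2 had 2.64, 5.84 and 9.80 per 1000 gene counts in Col and 8.86, 11.3 and 7.58 in *brr2a*-2, and *RBCS2B* intron 1 had 2.86, 7.93 and 12.9 against 12.6, 17.5 and 13.9. Col 3 lay above 1 mutant value for intron 1 and above 2 for intron 2, and the log2 fold changes were -0.07 ± 0.56 and 0.16 ± 0.58. *LHCA3* intron 2 had 5.38, 2.59 and 3.31 per 1000 gene counts in Col and 6.56, 4.94 and 5.91 in *brr2a*-2 (log2 0.12 ± 0.35), while intron 1 of the same gene was at 0.90 ± 0.44. The intron of *RBCS1B* with number 2 in the file had 14.9, 32.8 and 70.7 against 79.2, 63.3 and 53.7, with a log2 fold change of 0.03 ± 0.55.

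The introns of the *LHCB2* genes, whose levels stood at the upper end, were in the middle of the range. *LHCB2.1* intron 1 had 0.924, 7.72 and 6.02 counts per 1000 gene counts in Col and 17.8, 20.2 and 12.0 in *brr2a*-2, and *LHCB2.2* intron 1 had 4.28, 8.46 and 14.7 against 24.1, 27.6 and 20.9. Neither pair of groups overlapped, and the log2 fold changes beyond the gene were 0.81 ± 0.69 and 0.65 ± 0.51. In *PETC*, the carrier gene with the lowest fold change, the 4 introns were at 0.81, 0.49, 0.48 and 1.07, and all 4 did not overlap. The introns higher at an unadjusted p under 0.05 were 7 of 13 for PSII subunits, 5 of 14 for PSI subunits, 2 of 11 for *LHCB*, 2 of 8 for Rubisco and 1 of 3 for *LHCA* genes, and none of 3 for *PSBS* and of 4 for *PETC* (background 3.87%). Among these, *RBCS1A* intron 1, *RBCS3B* intron 2, *LHCA5* intron 1, *LHCB5* intron 3, *PSAN* intron 2 and *PSBP1* intron 2 had under 10 counts in at least 1 Col library. Their passing of the filter depended in part on the mutant, and they include both Rubisco introns and the *LHCA* one, so these counts are descriptions. For PSII subunits 12 of 13 were positive, with *PSBR* intron 2 at 1.33 ± 0.45 and *PSBP1* intron 3 at 1.13 ± 0.36.

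The level of the gene moved with the intron values in other genes. For their introns outside chromosome 3, the median log2 fold change beyond the gene was -0.36 where the gene was under 10 CPM, -0.21 at 10 to 30, -0.11 at 30 to 100, 0.01 at 100 to 300 and 0.32 above 300 CPM. In the highest class 56.8% of 544 introns did not overlap in the direction of *brr2a*-2, and 72.2% were positive. At an unadjusted p under 0.05 (edgeR), 66 of the 544 were higher and 10 lower, and 49 were called higher with the scaling of the gene table. The 42 photosynthesis introns in genes above 300 CPM were all positive with a median of 0.85, and 90.5% did not overlap. Of these 42, 15 were higher and none lower at the same p, and 11 were called higher with the scaling of the gene table. The 11 in genes at 100 to 300 CPM had a median of 0.40, with 54.5% not overlapping, beside 40.8% of 2001 other introns in that class. Of the remaining photosynthesis introns, 2 in a gene at 30 to 100 CPM had a median of 0.89 and 1 in a gene at 10 to 30 CPM was at 1.28, all without overlap. In these classes 33.4% and 27.3% of other introns did not overlap in the direction of *brr2a*-2. The part of the gene level in the intron values was not tested. Introns of the related lists had medians of 0.60 for Calvin cycle genes (36 of 37 positive), 0.58 for other thylakoid genes, 0.42 for antenna targeting, 0.30 for chlorophyll synthesis and 0.16 for the regulators. At an unadjusted p under 0.05 (edgeR), 15 of 43 introns of other thylakoid genes were higher and 1 lower, beside 17 of 56 photosynthesis introns higher. In these sets, 79.1% and 83.9% did not overlap in the direction of *brr2a*-2, and 12 and 13 were called with the scaling of the gene table. Higher at that p were 6 of 37 introns for Calvin cycle, 5 of 41 for chlorophyll synthesis, 2 of 27 for regulators and 0 of 9 for antenna targeting.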

How the data were processed

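The data are RNA sequencing counts of 6 libraries from which ribosomal RNA had been removed. According to the study's methods and the submitters' processing notes, the authors trimmed paired-end reads with Trimmomatic 0.32, aligned them to TAIR10 with TopHat and deposited raw HTSeq counts per gene and per intron of the first isoform, without normalization. Whether counting used the strand is not given in the sources used here, so reads of overlapping genes on opposite strands cannot be separated. Both count tables were analysed whole, with columns assigned to libraries by their names.

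The filter was filterByExpr (minimum count 10), the scaling TMM, and the test of genotype the quasi-likelihood F-test of edgeR 4.0.16 in R 4.3.3. Benjamini-Hochberg adjustment covered every feature of a table that was tested. Features were called where the adjusted p was below 0.05 and the log2 fold change reached 1 in either direction. To remove the change of the gene from its introns, the offset of each *brr2a*-2 library was raised by the gene's log2 fold change (prior count 2). Standard errors come from the model and standard deviations from the 3 libraries of a genotype. The study used DESeq2 after RUVseq with an unstated number of factors, so DESeq2 1.42.0 and 1 RUVg-type factor (5000 genes with the largest p) were alternatives, beside other scalings, filters and corrections, the replicate number as a block, and each library left out in turn. The scripts were tested on simulated counts, where the gene test kept to its threshold and the intron test, which takes the estimated change of the gene as known, made more false calls than its threshold allows. The simulation gave all features the same dispersion and had no library apart from the others as Col 1 is. It therefore does not show how the tests keep to their thresholds in these data.

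The members, the related lists and the rules were chosen with earlier results of these data known. Values per library are given for the member with the highest level and that with the largest change in each role, the 5 members with the smallest p, members at or under 10 CPM, for each list the gene highest among positive and the gene lowest among negative log2 fold changes (the regulators had no negative one), *CAO*, *GLK1* and *GLK2*, and the 5 introns with the largest and the 5 with the smallest change. *HYH*, *ZEP* and other members and introns were added after their values were seen. Gene models, promoters and introns were read from RefSeq TAIR10.1 and intron numbers follow the transcript. In the file they run along the chromosome, since on the minus strand intron counts correlated with length within genes in that order (Pearson r 0.42) and not in transcript order (-0.03). Uniqueness was counted in 90-base windows. Python 3.11.15, numpy 2.4.6, pandas 2.3.3, scipy 1.17.1 and matplotlib 3.10.9 were used for summaries and figures.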

Additional observations from a re-analysis of the deposited data

How the results depend on the processing

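No member gene was called under any of the gene settings tried. The members without overlap were 2 higher and none lower, and 2 lower with library totals in place of TMM. Leaving out 1 library gave between 2 and 14 higher and between 0 and 14 lower, the value of 14 lower without Col 1 and that of 14 higher without Col 2, where over all genes 12.6% to 18.4% were higher and 12.5% to 19.1% lower. Called member introns numbered 13, with a median log2 fold change of 1.46, under the scaling of the gene table, 1 with DESeq2, and between 0 and 1 with 1 library left out, when the median ran from 0.64 to 0.99. The cause was not tested.

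Directions turned for the following genes and introns, which neither edgeR nor DESeq2 called under any setting run. With 1 library left out, log2 fold changes ran from -0.00 to 0.48 for *LHCA1*, -0.52 to 0.21 for *LHCB1.3*, -0.35 to 0.34 for *PSAD1*, -0.75 to 0.03 for *PSAG*, -0.38 to 0.13 for *PSBO1*, -0.45 to 0.01 for *PETE2*, -0.13 to 0.32 for *ATPC1*, -0.17 to 0.56 for *ATPD*, -0.13 to 0.50 for *RBCS1A*, -0.12 to 0.76 for *RBCS2B*, -0.16 to 0.47 for *GLK1*, -1.09 to 0.14 for *CP12-1* and -0.05 to 0.79 for *CPSRP43*. For introns they ran from -0.29 to 0.22 for *RBCS2B* intron 2, -0.07 to 0.45 for *RBCS2B* intron 1, -0.19 to 0.52 for *RBCS1B* number 2 and -0.07 to 0.32 for *LHCA3* intron 2. *PSAD1* was at 0.13 with 1 RUVg factor. *PSBQ1* intron 1 was at 0.52 and *RBCS2B* intron 2 at 0.59 with the scaling of the gene table, and without the correction for the gene *RBCS2B* intron 2 was at 0.11 and *RBCS1B* number 2 at -0.04. With the direction kept, the range with 1 library left out was 0.68 to 1.41 for *LHCB2.1*, 0.53 to 1.1 for *LHCB2.2*, -1.29 to -0.36 for *LHCB4.3*, 0.10 to 0.82 for *PSBS*, 0.06 to 0.52 for *LHCA4*, -0.57 to -0.14 for *PSBX*, -0.66 to -0.20 for *FNR2*, 0.73 to 1.78 for *FBA1*, 0.68 to 2.19 for *ELIP2*, -1.31 to -0.51 for *PORB*, 0.70 to 1.56 for *GLK2* and 0.19 to 1.98 for *PORA*.

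Same-numbered libraries of the genotypes correlated at 0.04, 0.23 and 0.42 in their deviations from the genotype means. Differently numbered ones correlated between -0.49 (Col 3 with mutant library 2) and 0.23 (Col 1 with mutant library 2). Whether the replicate numbers pair the libraries was not tested. With the replicate block no member was called, the median log2 fold change of the members was 0.05 and that of their introns 0.98, *PSAD1* was at 0.05 and *RBCS2B* intron 2 at 0.15.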
